A study of Mus musculus with 8 samples.

Results

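The genes described here are brakes of the cell cycle: the CIP/KIP inhibitors Cdkn1b and Cdkn1c, the INK4 inhibitors Cdkn2b, Cdkn2c and Cdkn2d, the antiproliferative genes Btg1, Btg2 and Tob1, and the atypical cyclin Ccng2. The rule that picks them uses gene names and no values, although earlier results of these data were known when it was written. All 9 had a probe set annotated to that symbol alone, out of 19938 genes measured in this way, and the brightest such probe set stood for each gene. Expression was measured on MoGene 1.0 ST arrays in KSL SLAM cells, a bone marrow fraction rich in hematopoietic stem cells that was sorted as lineage-negative, c-Kit and Sca-1 positive, CD150 positive, and negative for CD48 and CD41. The donors were mice that received subcutaneous G-CSF (granulocyte colony-stimulating factor), 125 mcg per kg in each of 2 daily doses, or PBS (saline) alone, for 36 h. There were 4 arrays per group, each from the pooled marrow cells of 5 to 10 mice, and the labels call the 4 samples of a group independent. The labels used here give no strain, sex or age of the mice. The comparison asks which transcripts of these brakes differ in stem cells after G-CSF.

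Progress from G1 into S phase is driven by cyclin D with CDK4 or CDK6 and by cyclin E with CDK2, which phosphorylate the retinoblastoma protein and so release E2F factors. INK4 proteins bind CDK4 and CDK6 and keep cyclin D off them, whereas CIP/KIP proteins bind whole cyclin-CDK complexes and can stop CDK2. BTG and TOB proteins recruit the CCR4-NOT deadenylase to messenger RNAs and slow cell growth. Adult hematopoietic stem cells are mostly quiescent, and Cdkn1c and Cdkn1b are known for keeping them so. Several of these genes, among them Cdkn1b, Btg1 and Ccng2, are known targets of FOXO transcription factors. The inhibitor proteins are also controlled by degradation, which an RNA array does not measure.

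A stretch of DNA upstream of the transcription start was available for 8 of the 9 genes in a RefSeq promoter table (build GRCm38.p6), Cdkn1c being the other, and Cdkn2c had 2 listed starts, which gave 9 windows. The 250 bases before each listed start were searched on both strands for the FOXO motif TGTTTAC, the cyclic AMP response element TGACGTCA, the STAT motif TTCNNNGAA, the CCAAT box CCAAT and the TATA box TATAAA. The sequences below show the members with the 2 lowest p-values below (Cdkn2d and Cdkn2c), the members with a FOXO or cyclic AMP motif, and the CCAAT box nearest to the start of Cdkn1b. Each runs 5′ to 3′ on the strand of the gene, and capitals mark the motif. The Cdkn2d stretch holds only the bases before the outermost start of that gene.
Cdkn2d, chr9:21291422-21291459, minus strand, CCAAT box on the opposite strand: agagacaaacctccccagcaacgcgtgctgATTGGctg
Cdkn2c, chr4:109666757-109667006, minus strand, none of these motifs: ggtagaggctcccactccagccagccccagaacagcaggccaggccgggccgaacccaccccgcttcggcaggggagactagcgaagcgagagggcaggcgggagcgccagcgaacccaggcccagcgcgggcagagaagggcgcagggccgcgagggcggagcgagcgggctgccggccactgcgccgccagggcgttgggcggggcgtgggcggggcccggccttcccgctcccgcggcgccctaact
Cdkn2b, chr4:89311045-89311104, minus strand, cyclic AMP response element: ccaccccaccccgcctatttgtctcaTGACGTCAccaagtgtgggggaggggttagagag
Btg1, chr10:96616771-96616830, plus strand, FOXO motif: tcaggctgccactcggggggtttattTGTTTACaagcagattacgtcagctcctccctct
Btg2, chr1:134079288-134079347, minus strand, cyclic AMP response element: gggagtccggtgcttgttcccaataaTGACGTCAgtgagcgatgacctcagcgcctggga
Cdkn1b, chr6:134920340-134920399, plus strand, CCAAT box: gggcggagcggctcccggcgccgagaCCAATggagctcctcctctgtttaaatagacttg

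The FOXO motif was found in 1 of the 9 member windows, that of Btg1, and in 3.17% of all 32851 windows in the table. It began 204 bases before the start of Btg1. The cyclic AMP response element was found in 2 member windows, 46 bases before the start of Cdkn2b and 166 bases before that of Btg2, and in 1.55% of all windows. The CCAAT box was found in 5 member windows (Cdkn1b, Cdkn2d, Btg1, Btg2 and Tob1) and in 33.8% of all windows, and the TATA box in 2 (Btg1 and Tob1) and in 12.4%. The STAT motif was in 0 member windows and in 7.02% of all. None of the motifs found in the member windows overlapped another. These matches describe letters in a window and say nothing of binding.

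PBS replicate 3 differed from all other arrays: its log2 values had an interquartile range of 1.68, against 2.42 to 2.80, and correlated with the others at 0.883 to 0.903, against 0.956 to 0.977 among the other 7. The value without it is therefore given for each of the 9 genes. The log2 intensity of Kit was 10.70 ± 0.20 after PBS and 10.35 ± 0.12 after G-CSF (SD, n = 4 each), and that of Slamf1, the gene of CD150, was 6.62 ± 0.55 and 6.78 ± 0.52. Cd48, whose protein the gate excludes, had 7.19 ± 0.44 after PBS and 7.84 ± 0.79 after G-CSF, and the deposited values hold no detection call that could tell such a level from background. Ly6a, which encodes Sca-1, was not among the symbols of the annotation and was not analysed here. All 19 measured neutrophil markers of 20 listed had a positive log2 fold change, and 0 had a limma adjusted p under 0.05 (lowest 0.0559). Their mean log2 intensity was 8.47 to 10.20 in the G-CSF arrays and 7.34 to 8.33 in the PBS arrays. Of the monocyte and macrophage markers 7 of 9 were positive, with a median of 0.49, or 0.14 without PBS replicate 3. The medians were -0.64 for megakaryocyte and platelet genes, -0.07 for erythroid genes and -0.23 for B and T cell genes. Without PBS replicate 3 these 3 were -0.59, -0.18 and -0.09. In these lists too, 0 genes had an adjusted p under 0.05. In PBS replicate 1, marker means of 4 other lineages were also above those of the other 3 PBS arrays: 8.47 against 7.01 to 7.62 for megakaryocyte and platelet genes, 7.09 against 6.35 to 6.55 for erythroid genes, 7.34 against 6.23 to 6.45 for monocyte and macrophage genes, and, by a narrow margin, 5.69 against 5.13 to 5.67 for B and T cell genes.

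None of the 9 brakes changed past the threshold, an adjusted p under 0.05 in limma with Benjamini-Hochberg adjustment over all 19938 genes, where 0.0953% of all genes passed. With array PBS replicate 3 left out, 0 of 9 passed as well, against 0.13% of all genes. At an unadjusted p under 0.05, 2 of the 9 were called, beside 9.01% of all genes: Cdkn2d was higher, as were 6.07% of all genes, and Cdkn2c lower, as were 2.94%. The values of the 2 groups did not overlap for 1 of the 9, Cdkn2d, which was higher. This held for 6.15% of all genes in either direction and for 3.37% in the direction of a rise. Without PBS replicate 3 it held for the same 1 of 9 and for 8.71% of all genes. The log2 fold changes of G-CSF over PBS were positive for 6 and negative for 3 brakes, with a median of 0.07, against a median of -0.07 over all genes. Without PBS replicate 3 these medians were 0.07 and -0.02. The brakes thus lay on both sides of 0, and a 95% interval from limma is given with each gene. Cdkn1c, Cdkn2b and Cdkn2c were the dimmest, with mean log2 intensities at percentiles 55.69, 46.96 and 55.91 of all genes. The array medians were 5.74 to 5.89, and no detection call tells such levels from background.

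**Figure D1:**
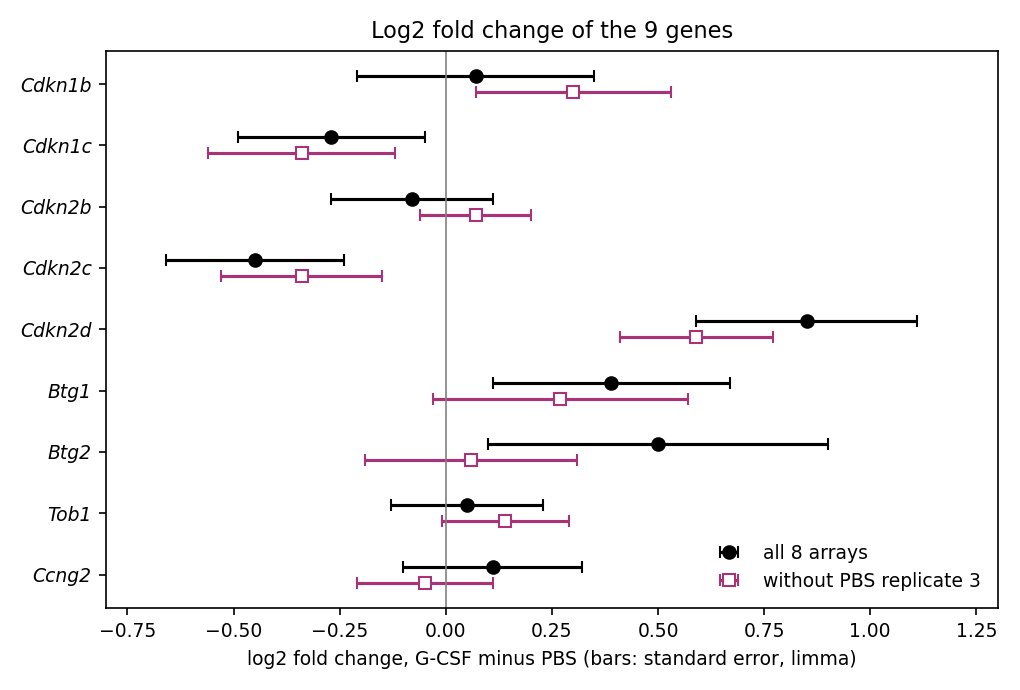
Log2 fold change of G-CSF over PBS for each of the 9 genes, with its standard error from limma, in all 8 arrays (filled circles) and without PBS replicate 3 (open squares). Cdkn2d lies farthest to the right (0.85, and 0.59 without that array). Cdkn2c lies farthest to the left in all 8 arrays (-0.45), while without that array Cdkn2c and Cdkn1c both stand at -0.34. Cdkn2b and Ccng2 cross 0 when the array is left out.

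Cdkn2d, an INK4 inhibitor of CDK4 and CDK6, had the largest difference of the 9. Its log2 intensity was 6.88, 6.75, 5.60 and 6.24 in PBS replicates 1 to 4 and 7.30, 7.38, 7.01 and 7.18 in G-CSF replicates 1 to 4. Every G-CSF array lay above every PBS array, and the nearest pair were G-CSF replicate 3 and PBS replicate 1. On the linear scale these intensities were 129 to 167 after G-CSF and 48.6 to 118 after PBS. The group means differed by a log2 fold change of 0.85 ± 0.26 SE (95% interval 0.27 to 1.43), or 1.8-fold, with a limma unadjusted p = 0.00827 and an adjusted p = 0.387. PBS replicate 3 was the lowest array, and without it the log2 fold change was 0.59 ± 0.18 SE (adjusted p = 0.37), with the groups still apart. In bulk samples such as these, a change in the share of cells of some type and a change in RNA per cell cannot be told apart. The neutrophil marker mean was 8.33, 7.34, 7.47 and 7.37 in the PBS arrays and 10.20, 10.14, 8.47 and 8.97 in the G-CSF arrays, in the same order. It was highest in the G-CSF arrays with the highest Cdkn2d, replicates 1 and 2. Among the PBS arrays both were highest in replicate 1, while in PBS replicate 2 Cdkn2d was high and the marker mean low. The mean of the proliferation list, described further on, also stood higher in every G-CSF array. It was 7.51, 7.48, 7.14 and 7.26 in the PBS arrays, which is the order of Cdkn2d there. In the G-CSF arrays it was 7.67, 7.81, 8.07 and 8.32, highest in replicates 3 and 4, where Cdkn2d was lowest. The monocyte and macrophage marker mean was 7.34, 6.45, 6.23 and 6.41 in the PBS arrays and 7.28, 7.54, 6.79 and 6.94 in the G-CSF arrays. Within each group that is the order of Cdkn2d, although PBS replicate 1 lay above G-CSF replicates 1, 3 and 4. The part of these lists in the Cdkn2d difference was not tested.

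Cdkn2c, another INK4 inhibitor, whose loss is known to raise the self-renewal of stem cells in mice, had a difference in the opposite direction. Its intensity on the linear scale was 64.1, 69.8, 104 and 98.8 in PBS replicates 1 to 4 and 71.7, 54.4, 53.8 and 62.1 in G-CSF replicates 1 to 4. G-CSF replicate 1 lay above PBS replicates 1 and 2, so the groups overlapped. These intensities were dim, and no detection call tells them from background. The log2 fold change was -0.45 ± 0.21 SE, with a 95% interval from -0.91 to just under 0 (limma unadjusted p = 0.0499, adjusted p = 0.551). It was -0.34 ± 0.19 SE without PBS replicate 3 and -0.57 ± 0.21 SE without PBS replicate 1. Across the 8 arrays Cdkn2c and Cdkn2d ran against each other, with Pearson r = -0.87, and r = -0.78 over the 7 arrays without PBS replicate 3. That was the strongest negative value among the 36 pairs of brakes over 8 arrays, and the points share the treatment and the arrays.

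Cdkn2b, the INK4 inhibitor known to be induced by TGF-beta, was nearly level across 7 arrays. Its log2 intensity was 5.53, 5.74, 6.20 and 5.48 in the PBS arrays and 5.72, 5.62, 5.61 and 5.66 in the G-CSF arrays. The 4 G-CSF values lay within 0.11 of each other and inside the PBS range. The log2 fold change was -0.08 ± 0.19 SE (95% interval -0.50 to 0.33, limma adjusted p = 0.854), and 0.07 ± 0.13 SE without PBS replicate 3, the array with the highest value. Cdkn2b was the 1 brake whose mean lay under the median intensity of all genes, and no detection call tells it from background.

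Cdkn1c, the imprinted CIP/KIP inhibitor that is known for holding stem cells in quiescence, had a lower mean after G-CSF, a difference within the spread of the PBS arrays. Its log2 intensity was 5.75, 6.67, 6.06 and 6.57 in the PBS arrays. In the G-CSF arrays it was 6.06, 5.94, 6.04 and 5.91. PBS replicates 2 and 4 were above all G-CSF arrays, PBS replicate 3 was level with the highest of them, and PBS replicate 1 was below all of them. The log2 fold change was -0.27 ± 0.22 SE (95% interval -0.75 to 0.20, limma adjusted p = 0.632). It was -0.34 ± 0.22 SE without PBS replicate 3 and -0.44 ± 0.20 SE without PBS replicate 1 (adjusted p = 0.463), the array with the higher means of markers of other lineages, whose part was not tested. Without PBS replicate 2 it was -0.14 and without PBS replicate 4 it was -0.17, so the size of this difference rested on single PBS arrays. The spread was 0.07 (SD) among the G-CSF arrays and 0.43 among the PBS arrays. The gene was dim, and no detection call tells its signal from background.

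Cdkn1b, the other CIP/KIP inhibitor, was read by 2 probe sets that disagreed. The brighter one had log2 intensities of 9.08, 9.15, 10.31 and 9.97 in the PBS arrays and 9.90, 9.73, 9.75 and 9.42 in the G-CSF arrays. By this probe set the G-CSF values lay inside the PBS range, with a log2 fold change of 0.07 ± 0.28 SE (95% interval -0.53 to 0.68, limma adjusted p = 0.913). The dimmer one had 9.33, 9.55, 7.54 and 8.90 in the PBS arrays and 9.11, 9.44, 9.52 and 9.13 in the G-CSF arrays. It was lowest in PBS replicate 3, where the brighter one was highest, and PBS replicates 1 and 2 were low by the brighter and high by the dimmer probe set. Its log2 fold change was 0.47 ± 0.37 SE with all arrays and 0.04 ± 0.19 SE without PBS replicate 3, against 0.30 ± 0.23 SE for the brighter one without that array. The 2 probe sets correlated across arrays at r = -0.71 (n = 8), and at r = -0.49 without PBS replicate 3 (n = 7). A level of Cdkn1b per array therefore depends on the probe set, and neither gave a difference past the threshold. The array annotation used here does not say which part of the transcript each probe set covers.

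**Figure D2:**
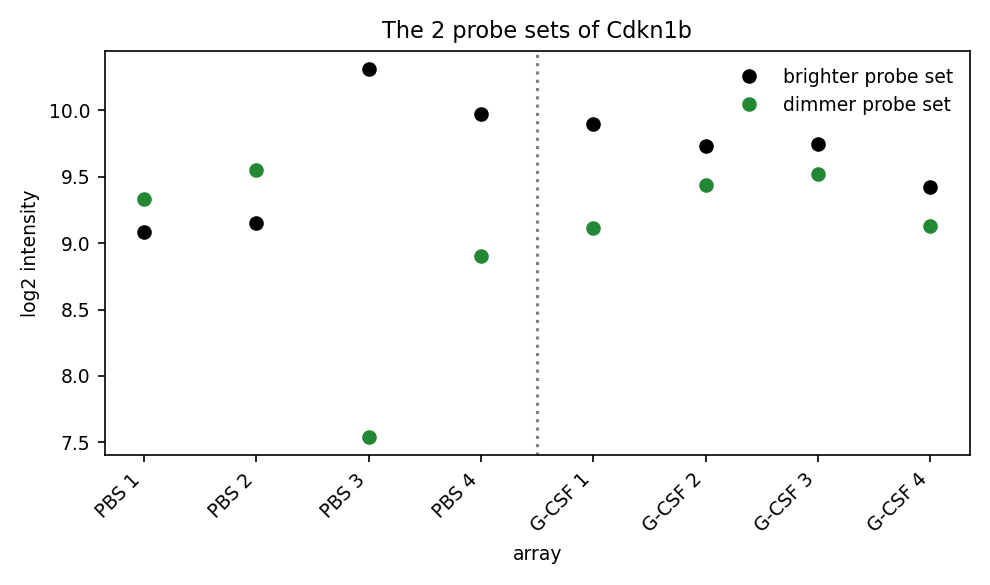
Log2 intensity of the brighter (black) and dimmer (green) probe set of Cdkn1b in each of the 8 arrays, with PBS arrays left of the dotted line. In PBS replicate 3 they stand at 10.31 and 7.54, and in PBS replicates 1 and 2 the dimmer one reads above the brighter one.

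Btg2, an immediate-early gene that slows the G1 to S transition, had the widest range of the 9. Its log2 intensity was 9.02, 9.45, 7.34 and 8.89 in the PBS arrays. In the G-CSF arrays it was 9.83, 8.97, 8.85 and 9.08. PBS replicate 3 was 1.78 below the mean of the other PBS arrays, G-CSF replicate 1 was the highest array, and the other 6 lay between 8.85 and 9.45. The log2 fold change of 0.50 ± 0.40 SE (95% interval -0.38 to 1.39, limma adjusted p = 0.635) was 0.06 ± 0.25 SE without PBS replicate 3, 0.76 without PBS replicate 2 and 0.29 without G-CSF replicate 1. It thus rested most on PBS replicate 3.

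Btg1, the close relative of Btg2 that is high in resting lymphocytes, had 8.27, 7.25, 7.33 and 7.90 in the PBS arrays and 8.06, 8.66, 7.53 and 8.07 in the G-CSF arrays, as log2 intensity. The groups overlapped widely, with PBS replicate 1 above 3 of the 4 G-CSF arrays. The log2 fold change was 0.39 ± 0.28 SE (95% interval -0.24 to 1.02, limma adjusted p = 0.62), 0.27 ± 0.30 SE without PBS replicate 3, 0.59 ± 0.28 SE without PBS replicate 1, 0.25 ± 0.30 SE without PBS replicate 2 and 0.20 ± 0.28 SE without G-CSF replicate 2. The FOXO motif printed above lies upstream of this gene, and a role of the motif or of FOXO factors in these values was not tested. Of the FOXO genes, Foxo3, the main FOXO factor of stem cell quiescence, had 8.98, 9.16, 9.05 and 9.40 in the PBS arrays and 8.78, 8.79, 8.87 and 8.90 in the G-CSF arrays. Its log2 fold change was -0.32 ± 0.16 SE and missed the threshold (limma adjusted p = 0.567). Every G-CSF array lay below every PBS array, and 6.15% of all genes had groups apart in either direction. Foxo1 stood the other way, with 6.56 to 6.66 in the PBS arrays and 6.68 to 6.94 in the G-CSF arrays, a log2 fold change of 0.17 ± 0.15 SE (limma adjusted p = 0.667). Foxo4 had -0.07 ± 0.20 SE and Foxo6 -0.16 ± 0.23 SE, and the groups of both overlapped.

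Tob1, known for holding T cells in quiescence, had the smallest range of the 9 over the 8 arrays. Its log2 intensity was 7.39, 7.75, 7.95 and 7.69 in the PBS arrays and 7.98, 7.68, 7.62 and 7.72 in the G-CSF arrays. The groups overlapped, with 3 of the 4 G-CSF values inside the PBS range. Its log2 fold change was 0.05 ± 0.18 SE (95% interval -0.34 to 0.44, limma adjusted p = 0.903), and 0.14 ± 0.15 SE without PBS replicate 3.

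Ccng2, an unusual cyclin that rises in arrested cells, had 7.27, 7.58, 6.75 and 7.36 in the PBS arrays and 7.48, 7.41, 7.06 and 7.46 in the G-CSF arrays, as log2 intensity. Replicate 3 was the lowest array of each group. The log2 fold change was 0.11 ± 0.21 SE (95% interval -0.34 to 0.57, limma adjusted p = 0.82), and -0.05 ± 0.16 SE without PBS replicate 3.

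**Figure D3:**
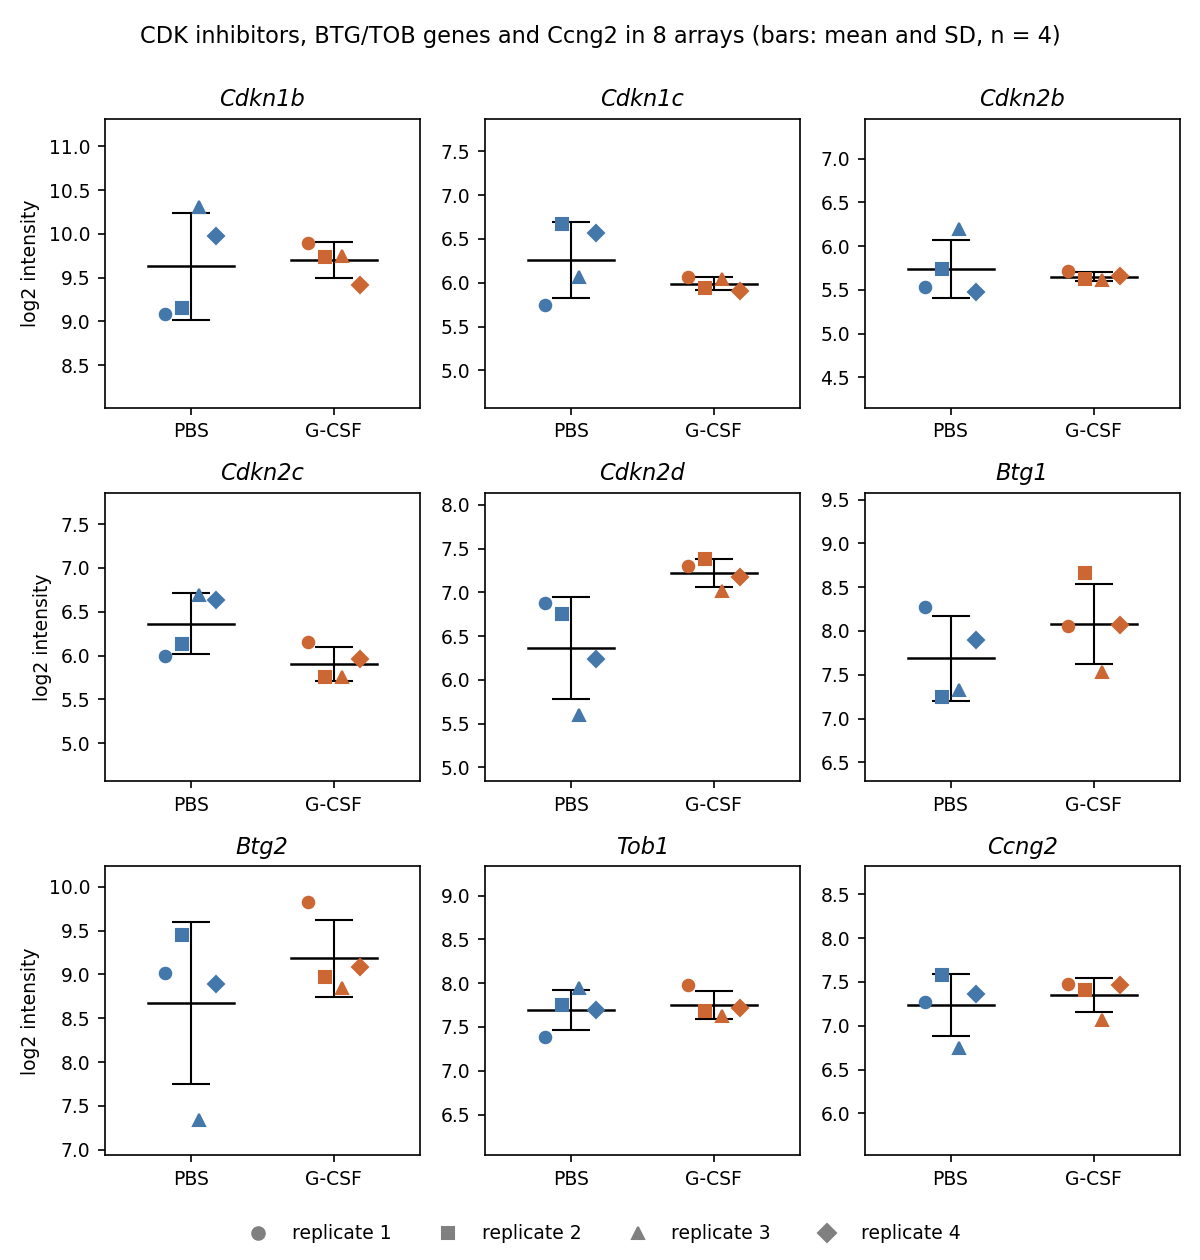
Log2 intensity of each gene in the 4 PBS arrays (blue) and the 4 G-CSF arrays (orange), with the marker shape giving the replicate number and black bars the mean and SD (n = 4). All panels span the same number of log2 units. Only the Cdkn2d panel shows groups that do not overlap, and PBS replicate 3 (blue triangle) is the extreme PBS value for 7 of the 9 genes.

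All 9 brakes had a smaller SD among the G-CSF arrays than among the PBS arrays, and so did 73.6% of all genes. Without PBS replicate 3 it was 7 of 9, beside 47.4% of all genes. PBS replicate 3 was the highest or lowest PBS array for 7 of the 9 brakes, close to the 76.6% of all genes for which this held. Among the 36 pairs of brakes the strongest positive correlation across the 8 arrays was that of Btg2 and Ccng2 (r = 0.90), which was 0.65 over the 7 arrays without PBS replicate 3. Cdkn2b and Btg2, whose windows both hold the cyclic AMP motif, had r = -0.68 over 8 arrays and 0.75 over those 7, so a single array turned the sign. Pairs without that shared motif turned too, as Cdkn2b with Cdkn2d (-0.60 and 0.57) and with Ccng2 (-0.63 and 0.54). A role of the motif was not tested.

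The genes that act with these brakes were set beside them as counts and medians. Of 10 cyclins and CDKs that the inhibitors bind, 0 passed the threshold in either direction, and 7 were positive, the median log2 fold change being 0.49 (0.29 without PBS replicate 3). The INK4 targets Cdk4 and Cdk6 had 0.99 ± 0.43 SE and 0.71 ± 0.25 SE (limma adjusted p = 0.54 and 0.451), with 0.48 for Cdk4 and 0.55 for Cdk6 without PBS replicate 3. The D-type cyclins differed among themselves, Ccnd1 having -0.64 ± 0.24 SE, Ccnd2 -0.39 ± 0.29 SE and Ccnd3 0.32 ± 0.20 SE, and without PBS replicate 3 these were -0.73, -0.69 and 0.16 in that order. Cdk1, the kinase of mitosis, had 0.97 ± 0.34 SE (limma adjusted p = 0.453), and 0.66 without PBS replicate 3. It was the 1 gene of this list whose groups did not overlap, as held for 6.15% of all genes. Cdk2 had -0.03 ± 0.15 SE.

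Of the 13 retinoblastoma and E2F genes, 0 passed, and the median was 0.10. The retinoblastoma relative Rbl1 had 0.76 ± 0.31 SE and E2f7, a repressor of E2F targets, 0.49 ± 0.22 SE, whereas E2f6, another repressor, had -0.54 ± 0.32 SE. Without PBS replicate 3 these were 0.54, 0.49 and -0.81. Of the 9 measured parts of ubiquitin ligases that degrade CIP/KIP proteins, 0 passed, with a median of 0.28 (0.10 without PBS replicate 3). Cks1b, the cofactor that lets the ligase subunit Skp2 recognise the Cdkn1b protein, had 8.91, 8.80, 8.84 and 9.30 in the PBS arrays and 9.31, 9.55, 9.81 and 9.58 in the G-CSF arrays. Its groups did not overlap, by a narrow gap between PBS replicate 4 and G-CSF replicate 1. That held for 6.15% of all genes in either direction and for 3.37% in the direction of a rise. The log2 fold change of Cks1b was 0.60 ± 0.18 SE, short of the threshold (limma adjusted p = 0.373), and 0.56 without PBS replicate 3. Skp2 itself had 0.34 ± 0.21 SE.

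Of the 15 measured genes of the CCR4-NOT and related deadenylases, through which BTG and TOB proteins act, 0 passed, and 13 were positive, the median log2 fold change being 0.21 with all arrays and 0.05 without PBS replicate 3. Cnot6, a catalytic subunit, had 0.46 ± 0.20 SE, and the scaffold Cnot1 had 0.35 ± 0.19 SE, or 0.22 without PBS replicate 3. Of the 10 measured FOXO factors and upstream regulators, 0 passed, with a median of 0.05 that was -0.01 without PBS replicate 3. The groups of 3 did not overlap, as held for 6.15% of all genes, and none of the 3 differences passed the threshold. The G-CSF arrays lay above the PBS arrays for Foxo1 and below them for Foxo3 and Zbtb17. Zbtb17, a partner of MYC, had a log2 fold change of -0.23 ± 0.15 SE (limma adjusted p = 0.606). Of 8 measured genes beside Cdkn1c in its imprinted cluster, 0 passed, and the median was -0.12. Phlda2, which like Cdkn1c is expressed from the maternal copy, had -0.22 ± 0.18 SE, against -0.27 for Cdkn1c. Similar values were seen for Kcnq1 (-0.23), Slc22a18 (-0.23) and Igf2 (-0.28). Ascl2 had -0.01, and Nap1l4, Tssc4 and Cd81 were positive (0.17, 0.18 and 0.20).

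Of the measured relatives that are not among the 9, Cdkn2a, which shares its locus with Cdkn2b, had a log2 fold change of 0.04 ± 0.17 SE, Tob2 had 0.12 ± 0.20 SE and Ccng1 had -0.31 ± 0.23 SE. Cdkn1a had no probe set annotated to it alone and was not analysed here. The proliferation list gave a contrast: 0 of its 23 measured genes passed, but all 23 were positive, the median log2 fold change being 0.64, or 0.45 without PBS replicate 3. The mean of that list was 7.67 to 8.32 in the G-CSF arrays and 7.14 to 7.51 in the PBS arrays. Mki67, the proliferation marker, had 0.71 ± 0.18 SE (limma adjusted p = 0.292), and Socs3, a target of the G-CSF receptor pathway, passed with 1.36 ± 0.18 SE (adjusted p = 0.0198).

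**Figure D4:**
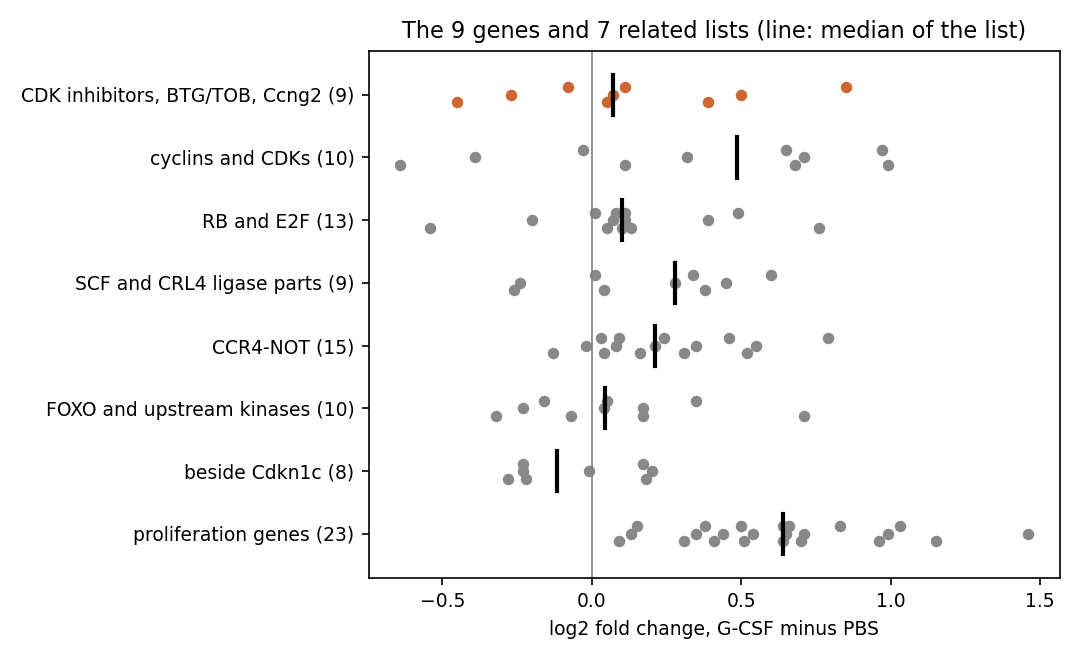
Log2 fold change of G-CSF over PBS, 1 point per gene, for the 9 genes (orange) and 7 related lists (grey), with the number of measured genes in brackets and a black line at each median. Points are set off vertically only to keep them apart. The 9 genes spread on both sides of 0 around a median of 0.07, while all 23 proliferation genes lie to the right of 0.

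For each brake the 3 genes with the most similar profile over the 8 arrays were taken from the 9969 brighter genes, by Pearson r. For Cdkn2d they were Psmc2, Rbm42 and Nup37 (r = 0.99, 0.98 and 0.98), and r was 0.96 or more for each over the 7 arrays without PBS replicate 3. For Cdkn2c they were Psg20, Vps37a and Il12rb1 (each 0.96), for Cdkn2b Pstk, Styx and Rpl7a, for Cdkn1c Zfp532, Clk1 and Spred3, and for the brighter Cdkn1b probe set Zfp935, Tab3 and Acta1. For Btg1 they were Tmem104, S100a13 and Pom121, which remained the 3 most similar over 7 arrays. For Btg2 they were Vapb, Pdk3 and Sla, for Tob1 Klf12, Syndig1l and Tmod1, and for Ccng2 Ubn1, Tor1aip1 and Mettl25. The likeness of Cdkn2b rested most on PBS replicate 3, since Rpl7a went from r = 0.96 to 0.74 and Styx from 0.97 to 0.78 without it. With so few arrays such values are high for many genes, and they share arrays and treatment.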

How the data were processed

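The deposited table gives a linear intensity for each probe set on each array; per the submitters' processing notes the authors used RMA, with version and options not given in the sources used here. Intensities ran from 2.15 to 16163, so log2 was taken. Of 35556 probe sets, 21789 carried 1 gene symbol, 1621 several and 12146 none in the platform annotation; only the first were used, and the brightest probe set by mean log2 was kept for each of 19938 genes. Identifiers of 21698 probe sets matched RefSeq (GRCm38.p6), with 0 symbols changed.

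G-CSF and PBS arrays were compared by lmFit and eBayes of limma 3.58.1 (R 4.3.3, 2-sided), with p-values adjusted by Benjamini-Hochberg over all genes, with no filter on dim genes. The code was tested on simulated arrays. The number of arrays limits the precision. The labels do not say from how many sorts the pooled samples came, so p-values measure the spread between these samples. The members and gene lists were chosen with earlier results of these data known. The rule names all 9 members, up to 4 genes of each list by lowest p (all in lists of 10 or fewer), Mki67, Csf3r and Socs3, and the 3 most similar genes per member; not every gene it allows is printed. Alternatives were the moderation, replicate block, array weights, a dim-gene filter, normalization, probe set choice, threshold, pseudocount and each array left out.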

Additional observations from a re-analysis of the deposited data

Results flagged for a closer look

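In G-CSF replicate 3 the log2 intensity of Ccng2 was 7.06, whereas the other 3 G-CSF arrays lay between 7.41 and 7.48. Its distance to the nearest of them, as a share of the group's range, was 0.83, just above Dixon's critical value for a group of 4 samples. It was the 1 such value among 18 groups examined (9 genes in 2 groups), where chance gives about 1 in 20.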

How the results depend on the processing

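Under each of 21 alternatives, 2 of which (the dimmer Cdkn1b probe set, with and without PBS replicate 3) were chosen after seeing the data, 0 of the 9 genes passed the threshold. The directions of Cdkn2d (0.58 to 1.02), Cdkn2c (-0.57 to -0.32), Cdkn1c (-0.44 to -0.14) and Btg1 (0.20 to 0.59) held in the 19 others, with limma adjusted p from 0.216 to 0.777 for Cdkn2d. Some of the 19 could not turn a sign. The moderation, replicate block, dim-gene filter, threshold and fit over all probe sets leave a log2 fold change as it is. So does the mean over probe sets for these genes, which have 1 probe set each. The lowest and highest median of the members with 1 array left out were -0.05 (without PBS replicate 1) and 0.16. After renewed quantile normalization the members' median was -0.04, against 0.07, and the cause was not tested. The median over all genes was then -0.01, so the members no longer stood above it. The sign turned with array weights for Cdkn2b (0.05) and Ccng2 (-0.03), after renewed quantile normalization for Cdkn1b (-0.06) and Tob1 (-0.04), and with PBS replicate 3 left out before quantile normalization for Cdkn2b (0.12), Btg2 (-0.02) and Ccng2 (-0.08). It also turned without PBS replicate 1 for Cdkn1b (-0.11) and Tob1 (-0.05), without PBS replicate 2 for Cdkn1b (-0.09), without PBS replicate 3 for Cdkn2b (0.07) and Ccng2 (-0.05), and without G-CSF replicate 1 for Tob1 (-0.02). With 1 array left out, the log2 fold change of Cdkn1b ran from -0.11 to 0.30, of Cdkn2b from -0.17 to 0.07, of Tob1 from -0.05 to 0.14, and of Ccng2 from -0.05 to 0.23. The filter on dim genes left out Cdkn2b. The deviations of same-numbered samples from their group means correlated at r = -0.03 to 0.14. No differently numbered pairs were compared, so whether same-numbered samples share more than a number was not tested. With the replicate block 0 members passed and the median was 0.07, and over all genes 23 passed in place of 19. Over all genes 3 to 31 passed with 1 array left out, 40 with array weights and 0 with all probe sets in the fit.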
